A study of Mus musculus with 9 samples.

Results

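A group of 5 miRNAs that mark stromal cells in most tissues, mmu-miR-143, mmu-miR-145a, mmu-miR-199a, mmu-miR-199b and mmu-miR-214 (written without the species prefix below), was followed in small extracellular vesicles (smEVs) of mouse kidney medullary (KM) cells. The members were chosen by name, with earlier results of these data known, as a measure of how mesenchymal the lines are. They make up 5 of the 1164 miRNAs counted. The entries of miR-199a and miR-199b hold the same number in each of the 9 libraries and are treated as 1 entry below, written miR-199a/b, which leaves 4 distinct profiles. The label of a mesenchymal group rests on few reads here: of the 4 profiles, 2 had no count in any library and miR-199a/b had at most 4 counts in a library, so miR-143 alone had a level that could be compared.

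The vesicles came from 3 immortalised lines: a wild-type control (WT), a line with the genotype Bbs4-/-, which lacks a subunit of the BBSome, the complex that moves cargo through cilia, and a line with the genotype Bbs6-/-, which lacks a chaperonin-like protein needed to build that complex. Every line was kept without serum for 24 h, which all groups share, and 3 smEV pellets of each gave 1 small RNA library apiece. Since each genotype is represented by 1 line, an effect of the genotype and a property of the line cannot be told apart, and p-values measure the spread between pellets of a line. A lower level in a pellet can reflect fewer vesicles that carry a miRNA or fewer copies in each vesicle, and counts from pellets cannot tell these apart.

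miRNAs are short RNAs that guide Argonaute proteins to messenger RNAs, mainly through the seed, bases 2 to 8 of the mature strand. miR-143 and miR-145 are processed from a shared primary transcript and are known as markers of smooth muscle, pericytes and fibroblasts, where miR-145 acts on the contractile programme. miR-199a and miR-214 are made from the noncoding RNA Dnm3os in mesenchyme, and miR-199 and miR-214 are known to rise in fibrotic tissue. Epithelial cells are known instead for the miR-200 family, which represses the transcription factors Zeb1 and Zeb2 and so holds back the change from epithelium to mesenchyme.

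The mature strands of miR-199 and miR-214 are shown because their letters bear on which entries can be told apart. Sequences are those of RefSeq on GRCm38.p6, and capitals mark the seed.
miR-199a-5p: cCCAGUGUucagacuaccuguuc
miR-199a-3p: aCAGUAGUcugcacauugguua
miR-199b-3p: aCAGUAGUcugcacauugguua
miR-214-5p: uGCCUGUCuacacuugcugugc
miR-214-3p: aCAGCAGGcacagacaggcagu

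The 3p strands of miR-199a and miR-199b were identical at all 22 bases, and this strand is encoded at 3 loci. Mir199a-1 lies at chr9:21496495-21496564 on the minus strand in an intron of Dnm2, Mir199b at chr2:32318460-32318569 on the plus strand in an intron of Dnm1, and Mir199a-2 at chr1:162217814-162217923 on the plus strand. Each is antisense to its dynamin gene, and Mir199a-2 is also exonic in Dnm3os. Mir214, at chr1:162223368-162223477, starts 5554 bp from Mir199a-2 and is exonic in the same noncoding RNA, antisense to an intron of Dnm3. The 3p strands of miR-199a and miR-214 had the same base at 8 of 22 positions and different seeds. One other miRNA of the RefSeq table, miR-761, had the seed of miR-214-3p, and its entry also had no count in the 9 libraries. Mir143 and Mir145a lie next to each other on the minus strand of chromosome 18, with starts 1371 bp apart. The deposited entries carry no strand suffix, so a count cannot be assigned to the 5p or the 3p strand.

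The total count was 176935 to 457163 in the Bbs4-/- libraries, 192654 to 423784 in the Bbs6-/- libraries and 64118 to 130905 in the WT libraries, so WT was the shallowest group. Levels are given as CPM, a count taken relative to its library's total after that total was scaled by edgeR's TMM factor (0.824 to 1.28). A count of 0 allows up to 3 counts, which is 6.98 to 19.0 CPM in a Bbs4-/- library, 8.59 to 16.5 CPM in a Bbs6-/- library and 19.4 to 36.5 CPM in a WT library. These limits and the intervals below cover counting error only. Replicate 2 of Bbs6-/- stood apart from its line: a chi-square test of its counts against each of the other two gave a statistic of 86.2 and 110 for every degree of freedom, beside 12.4 to 39.8 for the remaining pairs of replicates. Replicate numbers are those of the authors' columns: 1, 2 and 3 (Bbs4-/-), 2, 3 and 4 (Bbs6-/-), and 1, 3 and 4 (WT).

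miR-143 was the most abundant of the group and was counted in all 9 libraries, 211 times among 2086664 counts, or 0.0101% of them. In Bbs4-/- smEVs it had 31, 57 and 51 counts in replicates 1, 2 and 3, which is 196, 255 and 119 CPM. In Bbs6-/- smEVs it had 7, 19 and 7 counts in replicates 2, 3 and 4, which is 38.4, 64.9 and 20.0 CPM. In WT smEVs it had 11, 6 and 22 counts in replicates 1, 3 and 4, which is 134, 53.4 and 142 CPM. The Bbs4-/- libraries all lay above the Bbs6-/- libraries, and the WT libraries overlapped both, with replicate 3 of WT below the highest Bbs6-/- library. Counting error alone left wide intervals: as CPM of the unscaled total, the Bbs4-/- library with the highest level had 267 (95% exact binomial interval 202.5 to 346.4), the lowest Bbs6-/- library 16.5 (6.64 to 34.0) and the lowest WT library 56.5 (20.7 to 123). In both mutants the deepest library had the lowest level of miR-143, and in WT the deepest had the highest; a part of depth in the differences was not tested.

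**Figure D1:**
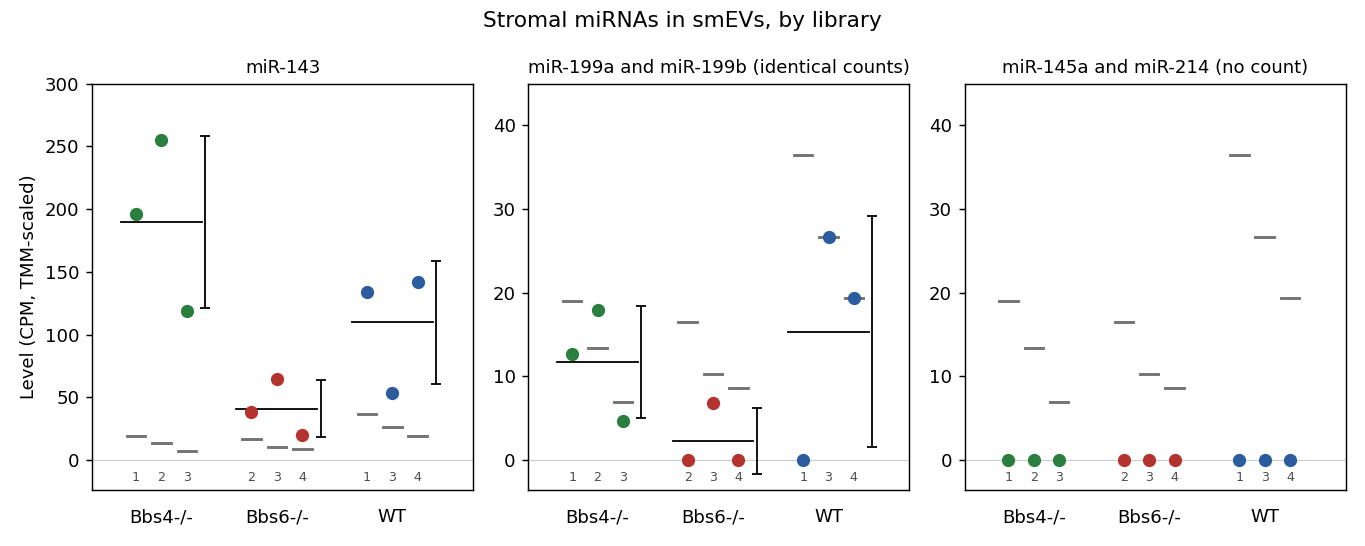
Level of each stromal miRNA in smEVs as CPM after TMM scaling (vertical axes, which differ between panels), by line (horizontal axis). Dots are libraries with their replicate numbers, the black line and bar are the mean ± SD of 3 libraries, and grey ticks mark the level of 3 counts in each library. miR-143 lies above its tick in all 9 libraries, miR-199a/b is above it in 1 library (replicate 2 of Bbs4-/-), and miR-145a and miR-214 are at 0 throughout.

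The mean level of miR-143 was 190 ± 68.5 CPM in Bbs4-/-, 110 ± 49.0 CPM in WT and 41.1 ± 22.6 CPM in Bbs6-/- (SD, n = 3 each), in that order. Neighbours in this order, Bbs4-/- and WT, and WT and Bbs6-/-, overlapped between libraries. Each mutant was compared with WT, and the mutants with each other, by edgeR's quasi-likelihood test over all miRNAs with enough counts, and a miRNA was called when its Benjamini-Hochberg adjusted p was under 0.1 and its log2 fold change at least 2 in either direction, the thresholds of the study. Set against WT, miR-143 stood 0.67 ± 0.50 higher in Bbs4-/- on the log2 scale (± standard error, here and below for log2 fold changes), with an adjusted p of 0.420 in edgeR's test. Its log2 fold change in Bbs6-/- was -1.40 ± 0.69, with an adjusted p of 0.266 in edgeR's test. Neither passed, among 308 miRNAs tested of which 6.17% were called for Bbs4-/-, and 298 of which 4.03% were called for Bbs6-/-.

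Between the mutants, miR-143 was 4.56-fold higher in Bbs4-/-, or 2.19 ± 0.58 on the log2 scale, and was called (adjusted p = 0.0484 by edgeR). It ranked 13 by p among the 309 miRNAs tested in this contrast, of which 3.88% were called and 1.29% were called in this direction. Libraries that did not overlap, with Bbs4-/- higher, were found for 14.2% of the miRNAs tested, so that feature by itself was common. Among the 53 other miRNAs with a total between 106 and 422 counts, within a factor of 2 of that of miR-143, 6 were called in this contrast, and their median standard error was 0.59, close to that of miR-143.

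The call between the mutants held under 8 alternatives of tool, scaling, filter and fit, with log2 fold changes of 2.04 to 2.30, and was lost with the column numbers as a replicate block, where the log2 fold change was 1.98 (adjusted p = 0.0417 by edgeR), under the threshold of 2. It also depended on the libraries. It was lost without replicate 1 of Bbs4-/- (2.17 on the log2 scale, adjusted p = 0.125 by edgeR), without replicate 2 of Bbs4-/- (1.91, adjusted p = 0.191, edgeR), without replicate 4 of Bbs6-/- (1.84, adjusted p = 0.174, edgeR) and without replicate 1 of WT (2.05, adjusted p = 0.101, edgeR). Without replicate 2 of Bbs6-/- it was kept (2.04, adjusted p = 0.0543, edgeR). Bbs4-/- was the higher line in each of the 9 fits that left out a library, with log2 fold changes of 1.84 to 2.59 and adjusted p of 0.0473 to 0.191 (edgeR).

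**Figure D2:**
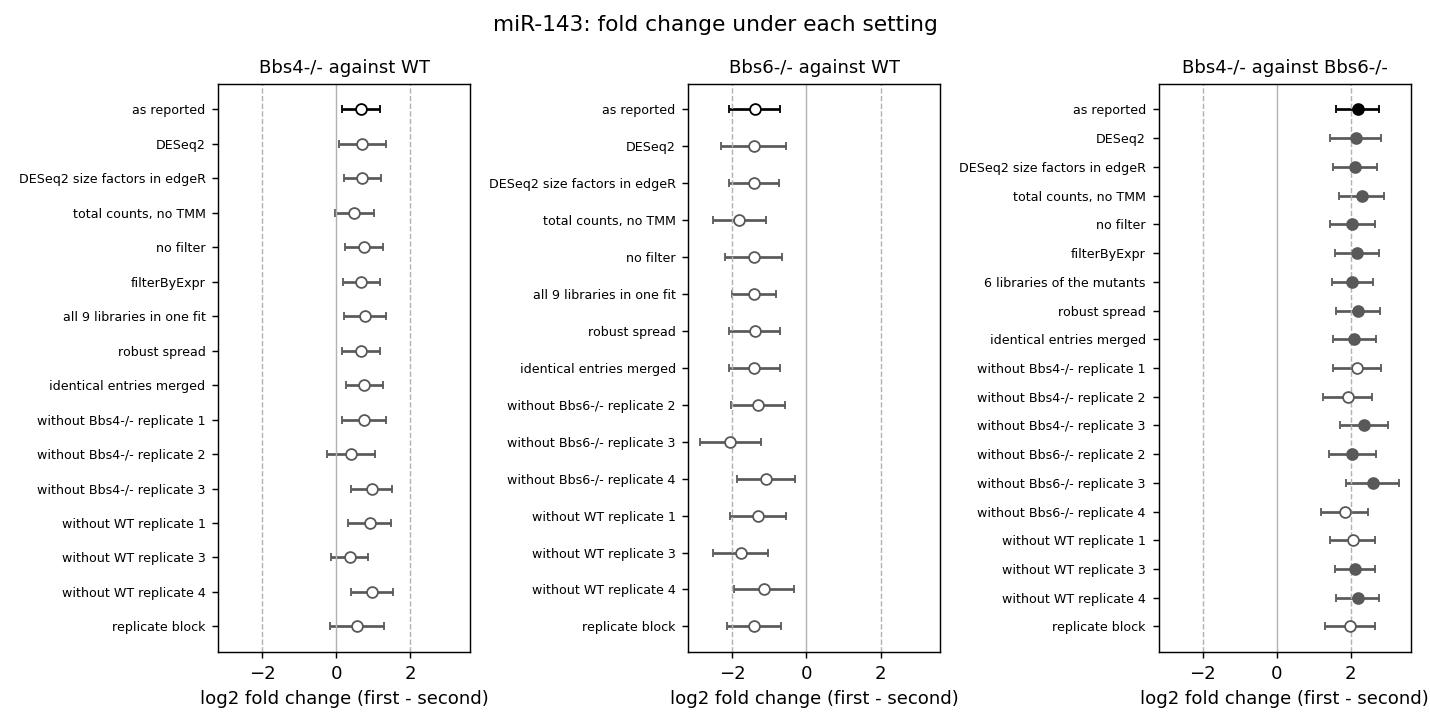
log2 fold change of miR-143 (horizontal axes, first line minus second) under each processing setting and with each library left out (vertical axes), in the 3 comparisons. Bars are ± 1 standard error, filled dots passed both thresholds, and dashed lines mark a log2 fold change of 2 in either direction. No setting gave a call against WT, while between the mutants the call was kept in 5 of the 9 fits that left out a library.

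miR-199a/b was near the limit of detection in each line. It had 2, 4 and 2 counts in Bbs4-/- (12.6, 17.9 and 4.66 CPM), 0, 2 and 0 counts in Bbs6-/- (0, 6.84 and 0 CPM), and 0, 3 and 3 counts in WT (0, 26.7 and 19.4 CPM). Of these libraries, replicate 2 of Bbs4-/- alone had more than 3 counts, and the 3 lines overlapped. The adjusted p was 0.837 for Bbs4-/- against WT, 0.498 for Bbs6-/- against WT and 0.611 between the mutants (edgeR's quasi-likelihood test), and no fold is given because the groups lay at or near 3 counts. In all libraries together miR-143 was counted 13.2 times as often as miR-199a/b (95% exact interval 7.93 to 23.5, counting error only).

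miR-145a and miR-214 had no count in any library. Over all 2086664 counts this allows up to 1.44 CPM of the unscaled total for each, and by line up to 3.54 in Bbs4-/-, 3.20 in Bbs6-/- and 9.96 in WT, so that the limit is loosest in WT. Neither entered a test, since that needed a total of at least 6 counts against WT and of at least 9 between the mutants. The partner of miR-145a was detected: miR-143, from the transcript it shares with miR-145, had at least 70.3 times as many counts. For this ratio miR-145a was set to 3 counts over all libraries. For miR-214 this is not known, since counts of miR-199a/b cannot be assigned to Mir199a-2 among the loci that encode it. Small RNA libraries do not capture every miRNA with the same efficiency, so a ratio of counts between miRNAs is not a ratio of molecules.

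Ranked by mean level, miR-143 was number 140 and miR-199a/b number 256 of the 469 miRNAs with a count, and miR-145a and miR-214 were among the 695 entries with none. Within single libraries, its rank ran from 105 in replicate 2 of Bbs4-/- to 200 in replicate 4 of Bbs6-/-. With miR-199a/b counted once, the group summed to 123 to 273 CPM in Bbs4-/-, 20.0 to 71.8 CPM in Bbs6-/- and 80.1 to 162 CPM in WT. Most of each sum was miR-143, the smallest part being that of replicate 3 of WT, where it gave 53.4 of the 80.1 CPM. This is 0.00200% to 0.0273% of the scaled counts.

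**Figure D3:**
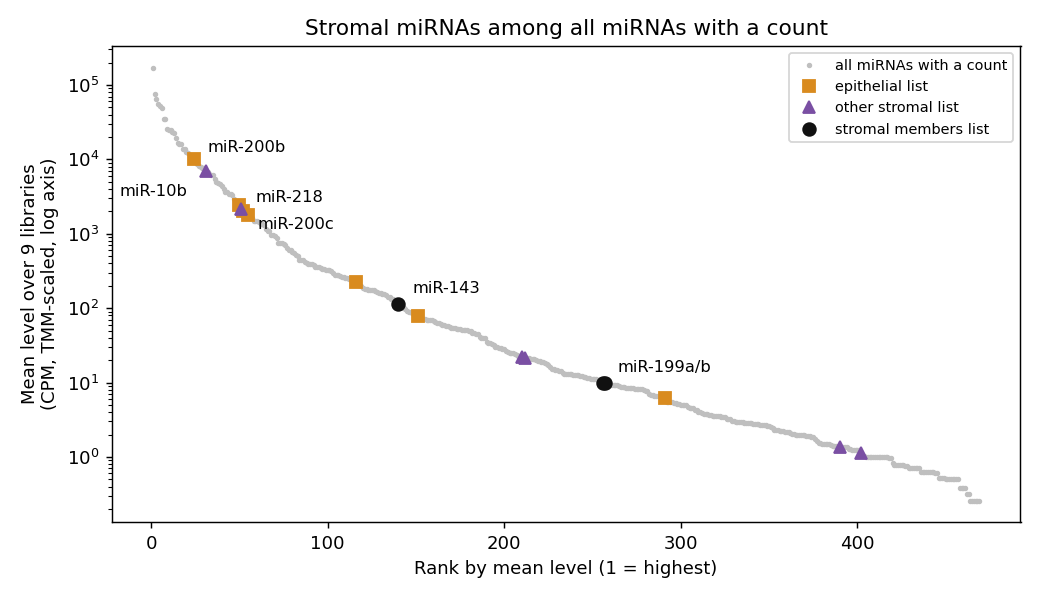
Mean level of every miRNA with a count over the 9 libraries (vertical axis, CPM after TMM scaling, log axis) against its rank (horizontal axis), with the stromal miRNAs, a list of other stromal miRNAs and a list of epithelial miRNAs marked. miR-143 at 114 CPM and miR-199a/b at 9.80 CPM lie below miR-10b, miR-218 and the most abundant epithelial miRNAs.

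Taken as a sum, the epithelial list was far more abundant than the stromal group in these vesicles. The 7 miRNAs of this list all had counts and summed to 17025 to 18998 CPM in Bbs4-/-, 16578 to 21868 CPM in Bbs6-/- and 10467 to 13492 CPM in WT. The most abundant was miR-200b, at 10355 ± 1073 CPM in Bbs4-/-, 11384 ± 292 CPM in Bbs6-/- and 8389 ± 978 CPM in WT (SD, n = 3 each). miR-200c, of the family that represses Zeb1 and Zeb2, and its cluster partner miR-141 were called higher than WT in both mutants, which share the WT libraries. Their WT libraries held 1 or 2 counts of miR-200c and none of miR-141. The epithelial entry miR-205 had 12 counts in all. In WT the means of miR-200c (12.1 CPM), miR-205 (4.05 CPM) and miR-141 (0 CPM) lay below that of miR-143 (110 CPM). miR-203, a miRNA of stratified epithelium, was called lower in Bbs4-/- than in WT, by -2.30 ± 0.46 on the log2 scale (adjusted p = 0.00341 by edgeR), and lower in Bbs4-/- than in Bbs6-/-, by -2.20 ± 0.71 (adjusted p = 0.0998 by edgeR). The mutants overlapped for miR-203, which had 50.6, 71.7 and 72.2 CPM in Bbs4-/- and 27.4, 417 and 455 CPM in Bbs6-/-. Replicate 2 of Bbs6-/-, the library that stood apart, was the low one in each case, with 5 counts of miR-203, 1 of miR-141 (5.49 CPM, against 177 and 195 in the other two) and 32 of miR-200c (176 CPM, against 3653 and 4414). Without it these calls held by edgeR, with log2 fold changes against WT of 8.45 for miR-200c (adjusted p = 3.21e-08) and 8.24 for miR-141 (adjusted p = 0.000445), and -2.80 for miR-203 between the mutants (adjusted p = 0.00132). The median log2 fold change of the list was 0.22 in Bbs4-/- and 0.74 in Bbs6-/- against WT, beside -0.02 and -0.01 over all miRNAs tested, and -0.26 between the mutants, beside 0.04.

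Of other miRNAs known from stromal cells, miR-10b and miR-218 were far more abundant than the group, and the remaining entries were low or absent. Of the 10 entries of this list, 4 had no count, among them miR-145b and the imprinted-cluster miRNAs miR-382 and miR-411, and miR-127 and miR-379 of the same imprinted cluster had 1 and 3 counts in all. The sum, 8197 to 9805 CPM in Bbs4-/-, 4385 to 7101 CPM in Bbs6-/- and 8437 to 17775 CPM in WT, came mostly from miR-10b, encoded in the HoxD cluster, and miR-218. In replicate 3 of WT this sum was above that of the epithelial list, at 17775 against 13492 CPM. In every other library it was below. miR-10b stood at 5972 ± 695 CPM in Bbs4-/-, 3820 ± 910 CPM in Bbs6-/- and 11051 ± 4393 CPM in WT (SD, n = 3 each). On the log2 scale its Bbs4-/- level differed from WT by -1.001 ± 0.258 (adjusted p = 0.0189 by edgeR) and its Bbs6-/- level by -1.47 ± 0.29 (adjusted p = 0.0177 by edgeR), sizes under the threshold of 2. miR-218, encoded within the Slit genes, went the other way in Bbs4-/-, at 3067 ± 132.7 CPM against 1457 ± 412 CPM in WT (SD, n = 3 each), a log2 fold change of 0.96 ± 0.25 (adjusted p = 0.0188 by edgeR). In Bbs6-/- it was at 1931 ± 495 CPM (SD, n = 3), 0.46 ± 0.28 from WT on the log2 scale (adjusted p = 0.386 by edgeR). Of the 10 entries of the list, 4 had enough counts for a test, and none of these was called in the 3 comparisons. Over all miRNAs tested, 3.88% to 6.17% were called in a comparison. The median log2 fold change of these 4 entries was -0.50 in Bbs4-/- and -0.51 in Bbs6-/- against WT, and 0.65 between the mutants. The 4 include miR-152 and miR-218-1, with 46 and 28 counts in all. The abundant miR-10b and miR-218 had opposite signs against WT, so these medians do not describe a shared change.

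The remaining lists set the stromal group beside other cell types. Endothelial miRNAs were at 26.9 to 48.9 CPM in Bbs4-/-, 3.42 to 104 CPM in Bbs6-/- and 0 to 136 CPM in WT, all from miR-126a, with no count of miR-126b. Blood miRNAs summed to 2.33 to 63.2 CPM in Bbs4-/-, 0 to 43.9 CPM in Bbs6-/- and 62.3 to 85.1 CPM in WT, and the most frequent was the erythroid miR-451a with 31 counts in all. The stromal sum lay above both lists in every Bbs4-/- library and in every WT library. In replicate 2 of Bbs6-/- it lay below both, at 38.4 CPM against 104 (endothelial) and 43.9 CPM (blood). In replicate 4 of Bbs6-/- it lay below the endothelial list, at 20.0 against 63.0 CPM, and in replicate 3 above both lists. Kidney tubule miRNAs, led by miR-30a, held 8.16% to 8.63% of the scaled counts of the Bbs4-/- libraries, against 5.87% to 6.30% for Bbs6-/- and 4.94% to 6.42% for WT. Nearly all of this was miR-30 entries. Mean levels by line were 76.1 to 108 CPM for miR-192 and 64.2 to 165 CPM for miR-194. They were 21.0 to 54.7 CPM for miR-204 and 2.97 to 11.9 CPM for miR-215. The entry miR-194-2 was called higher in Bbs4-/-, at 75.7 ± 5.98 CPM (SD, n = 3), than in WT, where it had no count (adjusted p = 0.00702, edgeR), and than in Bbs6-/-, where it had at most 3 counts in a library (adjusted p = 0.0618, edgeR). In both comparisons it was the 1 entry called of 12 tested. The entry miR-194 had log2 fold changes of 0.80 ± 0.69 against WT and -0.34 ± 0.63 between the mutants (adjusted p = 0.483 and 0.844, edgeR). miRNAs tied to fibrosis and TGF-beta were carried by miR-21a and took 19.9% to 20.2%, 22.3% to 25.2% and 9.44% to 12.2% in Bbs4-/-, Bbs6-/- and WT. miR-21a had a log2 fold change of 0.84 in Bbs4-/- (adjusted p = 0.00968, edgeR) and 1.18 in Bbs6-/- (adjusted p = 0.00201, edgeR) against WT, so it was not called at the threshold of 2. For miR-29a of the same list it was 0.09 in Bbs4-/- (adjusted p = 0.841, edgeR) and 1.00 in Bbs6-/- (adjusted p = 0.0417, edgeR). The sum therefore describes miR-21a and not the list as a whole. The striated muscle list, 1191 to 2379 CPM in Bbs4-/-, 1816 to 2347 CPM in Bbs6-/- and 853 to 1544 CPM in WT, was nearly all miR-206, while 6 of its 9 entries, miR-133b and miR-499 among them, had no count. Enough counts for a test were held by 1 of 2 endothelial, 2 or 3 of 5 blood, 2 of 9 muscle and 6 of 7 fibrosis entries. None of these was called, beside 3.88% to 6.17% of all miRNAs tested in a comparison.

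**Figure D4:**
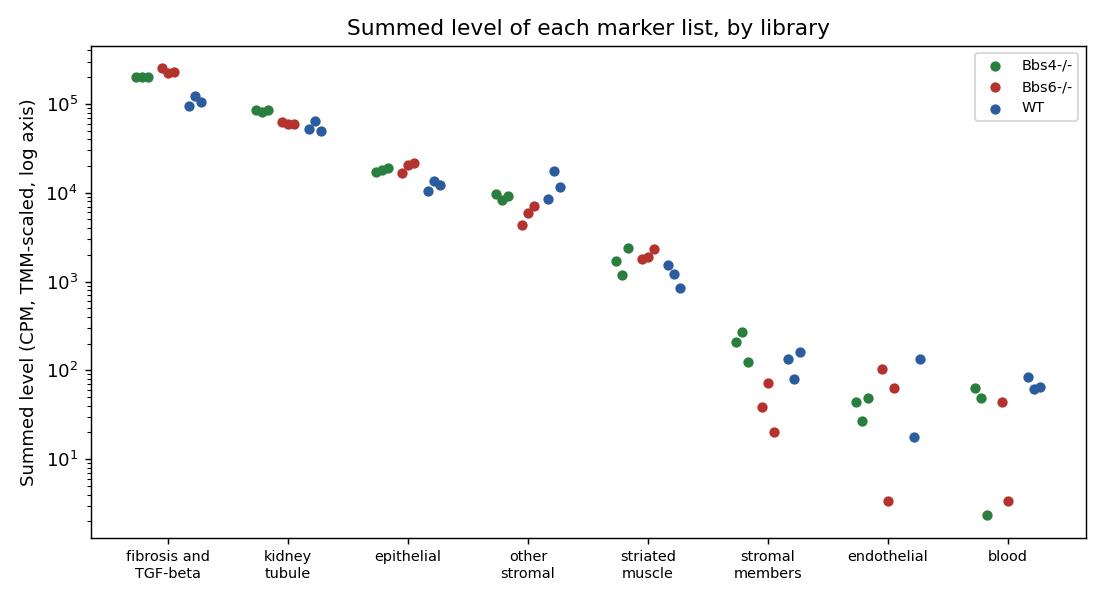
Summed level of each list of marker miRNAs (vertical axis, CPM after TMM scaling, log axis) in each library, by line; 2 libraries at 0, replicate 1 of WT for the endothelial list and replicate 4 of Bbs6-/- for the blood list, are not drawn. The stromal group lies between 20.0 and 273 CPM, and the epithelial list between 10467 and 21868 CPM.

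The pattern of miR-143 over the 9 libraries was most like that of miR-671, miR-149, miR-3968, miR-1199 and miR-365-2, as measured by the Pearson correlation of log2 CPM among 170 other miRNAs with at least 100 counts. The correlations were 0.74, 0.73, 0.71, 0.70 and 0.69, beside a median of -0.01 over the 170. They are given as a description, since the libraries fall into 3 lines and share their depth. miR-671 had means of 242, 65.7 and 96.0 CPM in Bbs4-/-, Bbs6-/- and WT, and miR-1199 had 113, 19.7 and 45.6 CPM, so in both Bbs4-/- was highest and Bbs6-/- lowest, as for miR-143. miR-365-2 differed in that WT, at 2.15 CPM, lay with Bbs6-/- at 4.11 CPM, below Bbs4-/- at 205.1 CPM. miR-199a/b, with 16 counts in all, and miR-145a and miR-214, with none, were below this minimum.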

How the data were processed

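Small RNA of 9 smEV pellets, 3 per line, was sequenced. The authors trimmed adapters (cutadapt 1.9), removed low-quality reads, collapsed reads of the same sequence and unique molecular identifier, and counted reads per miRNA with miRDeep2, keeping the largest count where a miRNA had several entries; the deposited values are raw counts. The build and miRBase release of that step are not given in the sources used here, and the submitters' processing notes name GRCm38. Column numbers of Bbs6-/- and WT are not those of the sample labels, and their columns count as replicates of the line without further assignment.

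Counts were tested in R 4.3.3 with edgeR 4.0.16 (TMM, quasi-likelihood test, Benjamini-Hochberg adjustment over all miRNAs tested), on 6 libraries and totals of at least 6 counts for each mutant against WT, and on 9 libraries and totals of at least 9 for the mutants. DESeq2 1.42.0, other scalings, filters and fits, merged entries, a replicate block, and omission of each library were alternatives. The tests were tried on simulated data. log2 CPM used a prior count of 2. The named miRNAs are the members, the called and most abundant miRNAs of each marker list, and the 5 most like miR-143. Further entries of the lists are named to show their part in a sum. The members and lists were chosen with earlier results of these data known. Positions are from GENCODE vM21 (GRCm38) and mature sequences from RefSeq, which held 3 of the 5 members. Figures were drawn with matplotlib 3.10.9.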

Additional observations from a re-analysis of the deposited data

Results flagged for a closer look

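miR-143 stood out because its changes against the shared WT libraries differed between the mutants by a test of the difference itself. It was higher in Bbs4-/- than in Bbs6-/- smEVs by a log2 fold change of 2.19 (adjusted p = 0.0484, edgeR's quasi-likelihood test). All 3 Bbs4-/- libraries lay above all 3 Bbs6-/- libraries, as for 14.2% of the 309 miRNAs tested. miR-143 ranked 13 by p among these, and the call was lost in 4 of the 9 fits that left out a library. The changes against WT, 0.67 and -1.40, did not pass. The Bbs6-/- level rests on 33 counts in 3 libraries. miR-143 was among members chosen with earlier results of these data known.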

How the results depend on the processing

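Against WT, miR-143 was called under no alternative run and kept its direction. miR-199a/b was called in no comparison under any alternative run, and its fitted folds are not given because its counts were at or near the limit. With filterByExpr, miR-199a/b was not tested in any comparison, and miR-143 was not tested for Bbs6-/- against WT. Leaving out each library gave log2 fold changes of miR-143 of 0.36 to 0.97 for Bbs4-/- and -2.05 to -1.10 for Bbs6-/- against WT, and 1.84 to 2.59 between the mutants, where 4 of 9 such fits lost the call. The number of miRNAs called was 16 to 23, 8 to 18 and 7 to 17, with 7 of 12 left between the mutants without replicate 1 of Bbs4-/-.

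The numbers in the column names were tried as a replicate block over 9 libraries. Libraries with the same number did not deviate together in every pair (correlations of -0.13 to 0.37). Pairs with different numbers were not set beside them, so this cannot decide whether the numbers are a pairing. The main fits use no block. Under the block, miR-143 had a log2 fold change between the mutants of 1.98 (adjusted p = 0.0417, edgeR), under the threshold of 2, so the call was lost, and 20 miRNAs in place of 12 were called in Bbs6-/- against WT. Against WT, miR-143 had 0.56 in Bbs4-/- and -1.42 in Bbs6-/- under the block.

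Total counts in place of TMM moved the median log2 fold change over all miRNAs from -0.02 to -0.20 in Bbs4-/-, from -0.01 to -0.44 in Bbs6-/- (both against WT) and from 0.04 to 0.15 between the mutants. The split of calls into higher and lower then went from 12 and 7 to 12 and 11 in Bbs4-/-, and from 8 and 4 to 8 and 9 in Bbs6-/-. miR-143 had -1.81 in Bbs6-/- with total counts and was not called. The summed level of the stromal miRNAs moved by less than 1 SD under other scalings. Without any 1 library its mean ran from 166 to 241 CPM in Bbs4-/-, 29.2 to 55.1 CPM in Bbs6-/- and 107 to 148 CPM in WT. Leaving out 1 of 3 libraries cannot move their mean by 1 SD, so these ranges are a description only. Without replicate 2 of Bbs6-/-, an alternative chosen after seeing the data for the epithelial miRNAs, miR-200c between the mutants changed sign, from 0.26 to -0.38 (adjusted p = 0.281, edgeR), with no call in either. Depth limits miR-145a, miR-214 and miR-199a/b most in WT.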
